A study of Homo sapiens with 6 samples.

Results

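Glycosyltransferases build the sugar chains of proteins and lipids in the Golgi apparatus, and glycan sulfotransferases add sulfate to them. Here these genes were taken as those whose symbol on the array's annotation belongs to the GALNT, C1GALT1, B3GAL, B4GAL, B3GNT, B4GNT, GCNT, FUT, ST3, ST6, ST8, CHST or MGAT families. They were chosen by name and not by their values. The rule found 43 symbols on 45 probe sets, of 14812 named genes in all, and 37 of them code for proteins. By role they were 19 GALNT genes, 15 CHST genes, FUT2, C1GALT1C1, C1GALT1C1L and 6 antisense or pseudogene symbols. RefSeq holds 107 protein-coding genes that fit the rule, so most of them are not named genes here. No other FUT gene was among the named genes, and no enzyme of the B3GAL, B4GAL, B3GNT, GCNT, ST3, ST6, ST8 or MGAT families.

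Affymetrix arrays were hybridised with RNA of LS180, an established human line from a colorectal adenocarcinoma. One array was made from cells that received an siRNA against CTNNB1 (beta-catenin, the effector of Wnt signalling), one against the transcription factor MYC and one against the long non-coding RNA MYU, which is listed as VPS9D1-AS1. A control siRNA array was named for each of them, so the 6 arrays form 3 pairs. The controls named for the CTNNB1 and MYC arrays carry the same number, 1, in their titles and that of the MYU array carries 2, and whether the first 2 are one hybridisation is not known. The labels used here give no siRNA sequence, dose or time, and they name no separate cultures. The treatment label of the CTNNB1 array reads CTNNB2, against its title and source name.

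Mucin-type O-glycans begin when a GALNT enzyme links N-acetylgalactosamine to a serine or threonine. The enzyme C1GALT1, with its chaperone C1GALT1C1 (Cosmc), then adds galactose, and other transferases branch, extend, sialylate, fucosylate or sulfate the chain. Colonic mucins carry these chains densely, and a cell's set of GALNT enzymes helps to decide which sites are used. N-glycans are made differently, on a lipid precursor that is transferred whole to the protein in the endoplasmic reticulum, and are then trimmed and branched by the MGAT enzymes.

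The deposited values were centred within each pair, so that a knockdown array and its control are mirror images. For GALNT5 the CTNNB1 array was at 1.12 and its control at -1.12, which is a log2 difference of 2.24. The MYC array was at 0.70 and its control at -0.70, and the MYU array was at 0.17 and its control at -0.17, which is the smallest distance of the 3 pairs. Values are given below as such log2 differences, a knockdown array minus the control of its pair, and base 2 was assumed. Levels were removed by the centring, and so a transferase that these cells do not use cannot be told apart from one that they use and that did not differ. The number of arrays limits the precision: a pair is 1 array against 1 array, so no value here has an error from replicates and no test was made. For the 37 protein-coding genes the question of mucin-type O-glycan against N-glycan steps could be asked on one side only. The O-glycan class held 21 genes (the GALNT genes, C1GALT1C1 and CHST4), while 0 of the 9 branching and core fucosylation genes and 0 of the 2 N-glycan sialyltransferases listed for the N-glycan class were among the named genes. The MGAT enzymes, FUT8 and ST6GAL1 were therefore not analysed here, nor were C1GALT1, B3GNT6 and the GCNT genes.

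The members that stood apart were few, and they were O-glycan initiators and FUT2. Which kinds of gene could stand apart was limited by the annotation, as 19 of the 37 protein-coding members are GALNT genes. Of the 31 protein-coding members with a start site in the RefSeq promoter table (build GRCh38.p14), FUT2, GALNT3 and GALNT12 were at least 2-fold higher with CTNNB1 siRNA, and the 250 bases before their starts are shown because these genes were higher together. GALNT5, which was also at least 2-fold higher, has no start site there, so nothing said of the windows covers it. The window of FUT2 is chr19:48695721-48695970 on the plus strand, that of GALNT3 is chr2:165794248-165794497 on the minus strand and that of GALNT12 is chr9:98807420-98807669 on the plus strand. Each is written 5′ to 3′ on the gene's strand, and capitals mark matches to the letters GGGCGG, the GC box, found on either strand.
FUT2 upstream window: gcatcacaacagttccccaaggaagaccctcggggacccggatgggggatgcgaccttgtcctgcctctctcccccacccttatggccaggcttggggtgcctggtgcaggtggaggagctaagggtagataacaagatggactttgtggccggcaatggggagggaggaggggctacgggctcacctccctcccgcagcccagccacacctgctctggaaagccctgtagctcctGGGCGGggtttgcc
GALNT3 upstream window: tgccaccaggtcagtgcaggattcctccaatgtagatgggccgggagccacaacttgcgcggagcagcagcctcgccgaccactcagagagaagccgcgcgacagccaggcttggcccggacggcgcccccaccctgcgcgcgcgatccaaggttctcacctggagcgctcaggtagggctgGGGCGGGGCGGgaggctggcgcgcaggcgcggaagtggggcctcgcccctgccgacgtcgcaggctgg
GALNT12 upstream window: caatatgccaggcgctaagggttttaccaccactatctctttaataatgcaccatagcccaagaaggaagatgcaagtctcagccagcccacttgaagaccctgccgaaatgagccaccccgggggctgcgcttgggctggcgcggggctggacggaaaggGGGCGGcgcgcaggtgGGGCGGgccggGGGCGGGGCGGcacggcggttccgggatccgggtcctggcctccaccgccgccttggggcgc

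The GC box occurred 1 time before FUT2, 2 times before GALNT3, where the matches share a base, and 4 times before GALNT12, where 2 of the matches also share one. Of 34943 windows of this length, 42.5% hold it. Some members have more than 1 window, and 29 of their 40 windows hold it. These windows belong to 26 of the 31 members, a count by gene for which no share over all genes was computed. The median share of G and C over all windows was 58%. It was 64% in the window of FUT2, 71.6% in that of GALNT3 and 67.2% in that of GALNT12. Whether the GC box is more frequent than this base content gives was not tested. The letters CTTTGA, the core bound by TCF/LEF partners of beta-catenin, were not in these 3 windows on either strand, and neither were the E-box CACGTG, which MYC binds with MAX, or TATAAA. Among all windows 11.2%, 6.32% and 10.8% hold them. CTTTGA was found before 4 other members, GALNT13, GALNT17, GALNTL5 and CHST6, CACGTG before GALNT9 and GALNTL6, and TATAAA before GALNTL6. Counted by window, they were in 5, 2 and 1 of the 40 windows of members. Matches overlapping each other were all counted. They are a description of these letters in these windows.

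With CTNNB1 siRNA, 4 of the 43 members were at least 2-fold higher and 0 at least 2-fold lower. Among all named genes 2.8% were 2-fold higher and 4.14% were 2-fold lower. GALNT5, a GalNAc transferase that starts O-glycans, was 4.72-fold higher (2.24), and 36 of the 14812 genes had a higher value. FUT2, the fucosyltransferase that makes the H antigen of mucosal secretions and so sets secretor status, was 4.56-fold higher (2.19), with 42 genes above it. Its deposited values were 1.09 in the knockdown array and -1.09 in the control. Both genes therefore lay among the highest values of this pair.

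GALNT12, an initiating enzyme best known from the digestive tract, was 2.43-fold higher with CTNNB1 siRNA (1.28). GALNT3, whose product is known for protecting the hormone FGF23 from cleavage, was 2.34-fold higher (1.23). GALNT1, one of the broadly expressed initiators, was 1.90-fold higher (0.93). It brought the members at least 1.5-fold higher to 5, and 0 were 1.5-fold lower, against 6.44% and 9.8% of all genes. GALNT6, the close relative of GALNT3, lay just short of this threshold at 1.49-fold (0.58), and the nearest member past it was GALNT1.

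**Figure D1:**
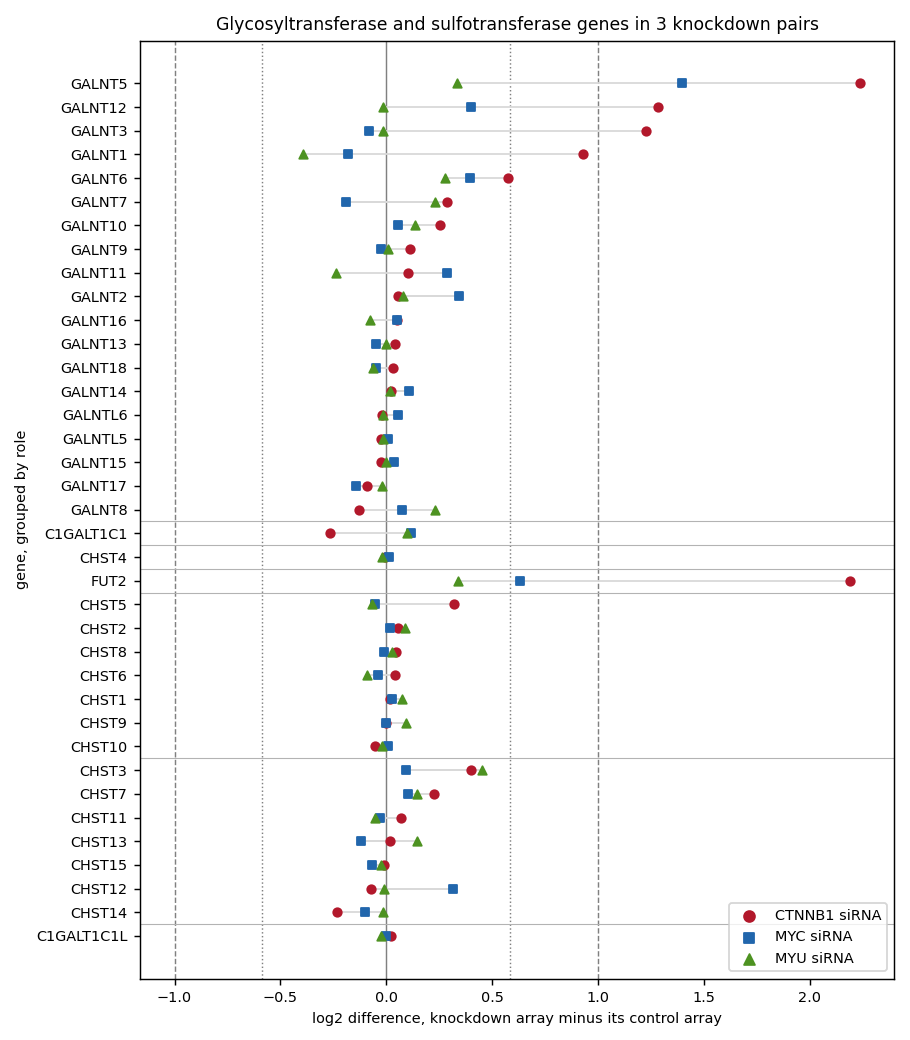
Log2 difference, knockdown array minus its control array (x axis), of each of the 37 protein-coding members (y axis, grouped by role) with CTNNB1 (circles), MYC (squares) and MYU (triangles) siRNA. Dotted lines mark 1.5-fold and dashed lines 2-fold. GALNT5 and FUT2 lie farthest to the right with CTNNB1 siRNA, at 2.24 and 2.19, and the CHST genes stay within 1.5-fold in all 3 pairs.

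The other GALNT genes stayed closer to their control in the CTNNB1 pair. GALNT7 and GALNT10, which prefer substrates that already carry a sugar, had values of 0.29 and 0.25. GALNT9 was at 0.11 and GALNT11, which acts on Notch and lipoprotein receptors, at 0.10. The remaining 10, among them GALNT2, GALNT13, GALNT14 and GALNT16, lay between -0.13 for GALNT8 and 0.06 for GALNT2. Over the 19 GALNT genes the median was 0.06, with 14 above 0 and 5 below, against a median of 0 and 48.9% above 0 over all genes. The family median was thus near that of all genes, and 4 members lay far above it.

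Close relatives within the family had different values in this pair. GALNT1 was at 0.93 while GALNT13, its neural relative, was at 0.04. In the subfamily of GALNT2, GALNT14 and GALNT16, all 3 values lay between 0.02 and 0.06. GALNT3 and GALNT6 were both higher, at 1.23 and 0.58. GALNT4, the nearest relative of GALNT12, is not a named gene by itself. The read-through transcript POC1B-GALNT4, which the rule does not take, had values of 0.21 with CTNNB1, 0.20 with MYC and 0.38 with MYU siRNA.

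C1GALT1C1, the chaperone without which the galactose of the first core is not added, was the lowest member in the CTNNB1 pair, at -0.26. It was at 0.11 with MYC siRNA and at 0.10 with MYU siRNA. The initiating genes GALNT5, GALNT12 and GALNT3 and this chaperone thus lay on opposite sides of 0 in the CTNNB1 pair, although C1GALT1C1 was only 1.20-fold lower and lower values were found for 2857 genes. C1GALT1C1L, a related sequence, was at 0.02, at exactly 0 and at -0.03 with CTNNB1, MYC and MYU siRNA. CHST4, which sulfates extended O-glycans, was at -0.01, 0.01 and -0.02 in the same order.

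With MYC siRNA, GALNT5 was the highest member, 2.63-fold above its control (1.40), and 12 genes had higher values. It was the 1 member at least 2-fold higher, and 0 were 2-fold lower, against 0.412% and 0.446% of all genes. FUT2 was 1.55-fold higher (0.63), with 262 genes above it. At 1.5-fold these 2 genes were the only members higher and 0 were lower, against 2.15% and 3.63% of all genes. In the CTNNB1 pair, whose control carries the same number as that of the MYC pair, the values of GALNT5 and FUT2 were 2.24 and 2.19.

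The other genes higher with CTNNB1 siRNA had smaller or opposite values in the MYC pair. GALNT12 was at 0.40 and GALNT6 at 0.39. GALNT3 was at -0.08 and GALNT1 at -0.18. GALNT7 had the lowest value of the members, -0.19. GALNT11 was at 0.29, and the median of the 19 GALNT genes was 0.05 against 0 over all genes.

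GALNT2, a broadly expressed initiator, was the member whose probe sets disagreed most. One of its 2 probe sets had a difference of 0.68 with MYC siRNA and the other 0.0036, which gave a mean of 0.34. With CTNNB1 siRNA the same probe sets were at 0.17 and -0.06, and with MYU siRNA at 0.07 and 0.09. The mean of this gene in the MYC pair therefore rests on 1 probe set. CHST6 was the other member with 2 probe sets, and these differed by at most 0.05 in any pair.

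With MYU siRNA 0 of the 43 members were 1.5-fold apart in either direction, and hence 0 were 2-fold apart. VPS9D1-AS1, the target itself, was at -0.50 in this pair and so did not reach 1.5-fold, which is 0.58 on this scale. Of all genes 0.668% were 1.5-fold higher, 1.21% 1.5-fold lower, 0.0608% 2-fold higher and 0.0945% 2-fold lower, and a count of 0 among so few genes is near that background. The highest was CHST3, a chondroitin sulfotransferase, at 1.37-fold (0.45), with 262 genes above it. FUT2 and GALNT5 followed at 0.34 each, and GALNT6 was at 0.28. The lowest was GALNT1 at -0.40, with 523 genes lower, and GALNT11 came next at -0.24.

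**Figure D2:**
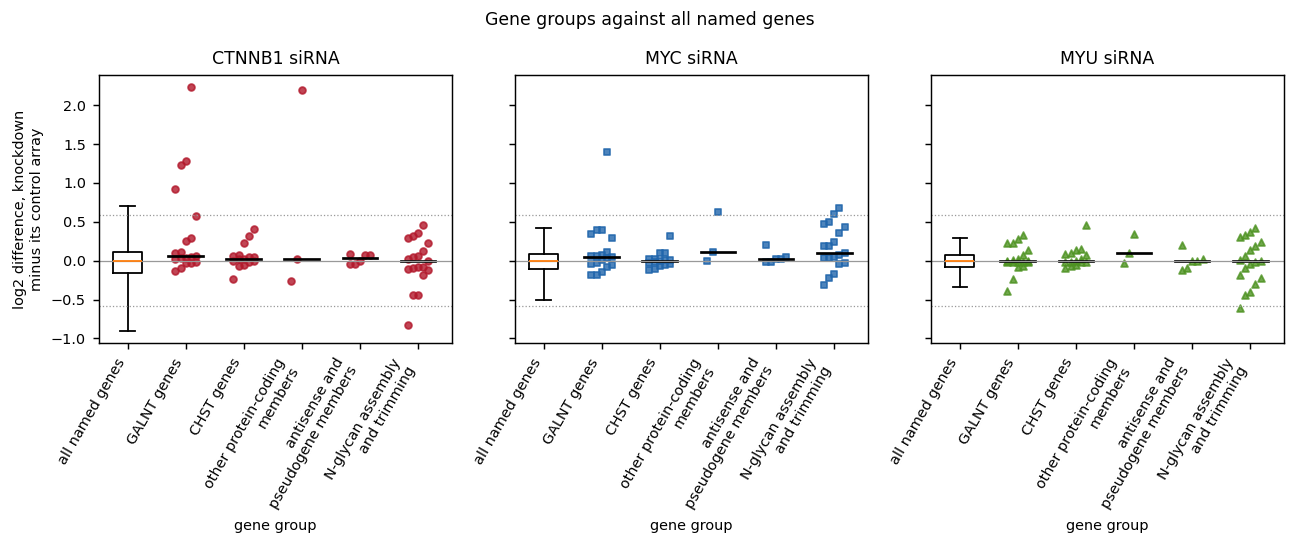
Log2 differences (y axis) of the GALNT genes, CHST genes, other protein-coding members, antisense and pseudogene members and genes of N-glycan assembly and trimming, 1 panel for each pair. Each point is a gene, black bars are group medians, the box shows the median and quartiles of all 14812 named genes with whiskers from the quantile 0.05 to the quantile 0.95, and dotted lines mark 1.5-fold. In the CTNNB1 panel 4 GALNT genes and FUT2 lie above the upper whisker at 0.70, while the medians of all groups lie near 0.

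The 15 CHST genes stayed within 1.5-fold in all 3 pairs. Their median was 0.02 with CTNNB1, 0 with MYC and -0.0091 with MYU siRNA. CHST5, the sulfotransferase of intestinal N-acetylglucosamine, was at 0.32, -0.05 and -0.07 in the same order. The other sulfotransferase genes that act on more than one kind of chain or on keratan sulfate, CHST1, CHST2, CHST6, CHST8, CHST9 and CHST10, lay between -0.09 and 0.09 in every pair. CHST9, which sulfates terminal N-acetylgalactosamine, differed by exactly 0 in the CTNNB1 and MYC pairs, as did 336 and 396 of all genes.

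The 7 CHST genes for chondroitin and dermatan sulfate are CHST3, CHST7, CHST11, CHST12, CHST13, CHST14 and CHST15. CHST3 was at 0.40 with CTNNB1, 0.09 with MYC and 0.45 with MYU siRNA. CHST7, which like CHST3 sulfates chondroitin, was at 0.23, 0.10 and 0.14. CHST14, needed for dermatan sulfate, was at -0.23, -0.10 and -0.01. CHST12 was at 0.32 with MYC siRNA and within 0.08 of 0 in the other pairs. CHST11, CHST13 and CHST15 lay between -0.12 and 0.15 in every pair. No direction was shared by the 7.

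The antisense and pseudogene symbols, B3GALT5-AS1, GALNT9-AS1, ST3GAL6-AS1, ST8SIA6-AS1, MGAT4EP and MGAT4FP, code for no enzyme. They lay between -0.05 and 0.08 with CTNNB1 siRNA, between -0.02 and 0.20 with MYC siRNA and between -0.12 and 0.21 with MYU siRNA. GALNT9-AS1 was the highest of them with MYC and MYU siRNA. Strand handling is not given in the sources used here, so an antisense value cannot be told apart from that of an overlapping gene.

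The spread of the members was compared with that of all genes. With CTNNB1 siRNA the standard deviation over the 43 members was 0.55 against 0.51 over all genes, and 62.8% of members against 43.2% of all genes lay within 0.1 of their control. With MYC siRNA it was 0.26 against 0.28, and with MYU siRNA 0.15 against 0.20. The member medians were 0.04, 0.02 and 0 against 0 over all genes in each pair. Without the 5 genes past 1.5-fold, chosen by these very values, the other 32 protein-coding members spread in the CTNNB1 pair with a standard deviation of 0.17.

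Genes of N-glycan assembly and trimming lie outside the rule and were read beside the O-glycan class. They precede the branching steps, whose genes are not named here. Of 46 symbols listed, 19 were named genes. Their median was -0.0086 with CTNNB1, 0.09 with MYC and -0.0037 with MYU siRNA. For the 21 O-glycan genes it was 0.05, 0.05 and 0 in the same order. With CTNNB1 siRNA 0 of the 19 were 1.5-fold higher and 1 was lower, DPAGT1 at -0.82, which starts the lipid-linked precursor. With MYC siRNA 2 were 1.5-fold higher, both of the oligosaccharyltransferase complex, MAGT1 at 0.68 and DDOST at 0.60. With MYU siRNA UGGT2, a folding sensor, was lower at -0.61. The medians of both classes lay close to that of all genes in each pair. Past 1.5-fold in either direction were 4 of the 21 O-glycan genes and 1 of the 19 N-glycan genes with CTNNB1 siRNA. The counts were 1 and 2 with MYC siRNA and 0 and 1 with MYU siRNA. Of all genes 6.44% were 1.5-fold higher and 9.8% lower with CTNNB1 siRNA. The shares were 2.15% and 3.63% with MYC siRNA and 0.668% and 1.21% with MYU siRNA. Counts in classes this small were not tested against these shares.

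Donor synthesis and transport supply all these enzymes. Of 29 listed genes for nucleotide sugars and sulfate donors 21 were named genes, with medians of 0.30 (CTNNB1), 0.04 (MYC) and -0.03 (MYU). CMAS, which activates sialic acid, was 2.36-fold higher with CTNNB1 siRNA (1.24). It was the 1 gene of the list 2-fold apart there, while 3 were 1.5-fold higher and 2 lower, including UGP2 at 0.67 and UGDH at -0.68. The shares of all genes were 2.8% and 4.14% at 2-fold and 6.44% and 9.8% at 1.5-fold, higher and lower. The 2 lower of 21 are near their share, while the 3 higher lie above theirs. In this pair 14 of the 21 values were above 0, and the list median of 0.30 lay above the quantile 0.75 of all genes, 0.11. No test was made on so few genes. PAPSS2, which makes the sulfate donor used by the CHST enzymes, was at 0.61, -0.86 and -0.82. Of the 8 genes of the COG complex, which keeps transferases in the Golgi, COG6 was at least 1.5-fold higher with CTNNB1 and MYC siRNA (0.79 and 0.59), and the list medians were 0.19, 0.17 and -0.05 with CTNNB1, MYC and MYU siRNA. Of 15 listed Golgi transporter genes only TMEM165, which is not itself a carrier of these donors, was a named gene, at 0.06, 0.20 and 0.25.

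Of 20 other transferase genes outside the rule, 1 was 2-fold higher and 1 was 2-fold lower with CTNNB1 siRNA, which is near the 2.8% and 4.14% of all genes. UGCG, the first enzyme of most glycosphingolipids, was 3.39-fold higher (1.76), with 0.07 for MYC and -0.01 for MYU siRNA. LARGE2, which extends the glycan of dystroglycan, was 3.48-fold lower (-1.80), with -0.53 and 0.44. POFUT1, the O-fucosyltransferase of Notch, was at -0.78 with CTNNB1 siRNA, and RFNG, which extends that fucose, was at 0.75 with MYU siRNA. Of 31 genes that polymerise or modify glycosaminoglycans 3 were 1.5-fold higher and 2 lower with CTNNB1 siRNA, with a median of 0.05. These shares are near the 6.44% and 9.8% of all genes, and the values of single genes are a description. Among these, EXT1, a heparan sulfate polymerase, was at 1.09, 0.73 and -0.03 with CTNNB1, MYC and MYU siRNA. CHPF, a chondroitin polymerising factor, was at 0.72, 0.85 and 0.41. CHSY1, a chondroitin synthase, was at -0.66, -0.29 and -0.22, and GLCE, which epimerises heparan sulfate, at -0.46, -0.30 and -0.81. Of the 4 sialidase genes named here, NEU1, the lysosomal enzyme, was at 1.35, 1.53 and 0.63, and the other 3 lay between -0.28 and 0.49.

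**Figure D3:**
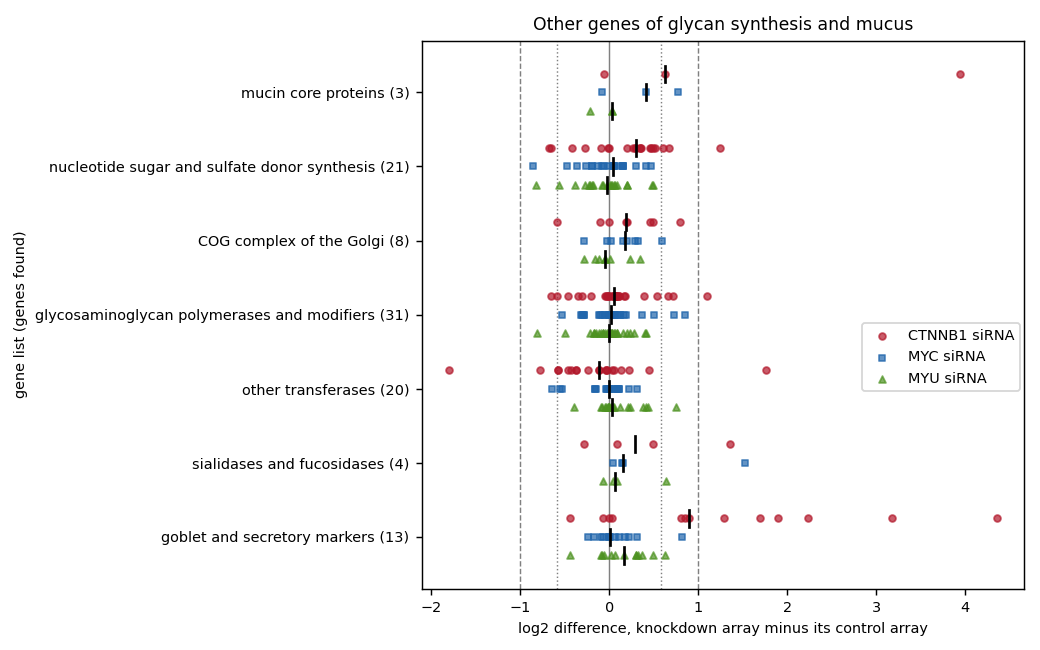
Log2 differences (x axis) of genes in 7 lists of glycan synthesis and mucus (y axis, with the number of genes found) in the CTNNB1 (circles), MYC (squares) and MYU (triangles) pairs. Points are genes, black bars list medians, dotted lines 1.5-fold and dashed lines 2-fold. The goblet and secretory markers spread up to 4.36 with CTNNB1 siRNA, with a median of 0.89, while the medians of the enzyme lists lie between -0.12 and 0.30.

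The proteins that carry O-glycans were represented by 3 of 19 listed genes, and no classical MUC gene was among them. MUCL3, a mucin-like protein, was at 3.94, 0.77 and -0.21, and FCGBP, a mucus protein of goblet cells, at 0.63, 0.42 and 0.03, with CTNNB1, MYC and MYU siRNA. MUCL1, the other named gene of this list, was at -0.06, -0.08 and 0.03. Of the 13 goblet and secretory markers 9 were at least 1.5-fold higher with CTNNB1 siRNA, 1 with MYC siRNA and 1 with MYU siRNA. Of all genes 6.44%, 2.15% and 0.668% were. The 1 with MYC siRNA was TFF3, at 0.82, and the 1 with MYU siRNA was ATOH1, at 0.63. This list differs from the one first planned, and it was chosen with earlier results of these data known. TFF1, TFF2, AGR3, CREB3L1, KLF4, FOXA3 and REP15 were added, and MUC2 and FCGBP were left out. The counts are therefore a description and were not tested against the shares of all genes. SPDEF, a transcription factor of mucus-secreting cells, was at 2.24, -0.07 and 0.37. The trefoil peptides TFF2, TFF1 and TFF3, secreted with mucins, were at 4.36, 3.18 and 1.89 with CTNNB1 siRNA, while ATOH1, which commits gut cells to the secretory lineage, was at -0.44. CLCA1, FOXA3 and REP15 of the same list were at 0, -0.07 and 0.04 with CTNNB1 siRNA. FUT2, GALNT5, GALNT12 and GALNT3 were thus higher in the same array as SPDEF and the trefoil peptides. With MYC siRNA GALNT5 and FUT2 were at 1.40 and 0.63, while SPDEF was at -0.07 and the median of the marker list was 0.01. Whether the values of the markers and those of these transferases are connected was not tested.

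The arrays themselves were checked only as far as differences allow. The MYC gene was at -2.38 with CTNNB1 siRNA and at -1.18 with MYC siRNA, and CTNNB1 is not a named gene here. VPS9D1-AS1, the MYU target, was at -0.50 with MYU siRNA, and also at -0.53 with CTNNB1 and -0.24 with MYC siRNA. Of 10 colon epithelial markers 7 were named genes, but without levels they could not be used to check the cell type. KRT20, a keratin of differentiated gut epithelium, was the highest of them with CTNNB1 siRNA, at 4.39, and the list ranged down to -0.42. It was at 1.16 with MYC siRNA and at -0.73 with MYU siRNA. Of 3 fibroblast and 2 leukocyte markers that were named genes, LUM was at 2.78 and the other 4 between -0.23 and 0.01 with CTNNB1 siRNA. All 5 lay between 0.04 and 0.22 with MYC siRNA, and with MYU siRNA LYZ, a leukocyte gene, was at 0.74 and the other 4 between -0.06 and 0.06. The part of either list in the results was not tested.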

How the data were processed

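Total RNA from 6 LS180 samples was biotin-labelled and hybridised by the Affymetrix procedure, per the labels' protocols. How they were background-corrected, normalized and summarised is not given in the sources used here. Log2 values were deposited by the authors centred within each pair, as read from the values: a probe set's values sum to 0 within 1e-06 in every pair. The base was assumed. Of 44629 probe sets, 15835 carry 1 gene symbol in the platform annotation and 28794 are unnamed here. All 14812 symbols matched RefSeq (GRCh38.p14).

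The difference was knockdown minus control, averaged over a gene's probe sets. Genes were counted at 2-fold, and at 1.5-fold as an alternative. No test was possible with 1 array a group. Members and lists were chosen with earlier results of these data known. Named were all members 1.5-fold apart in any pair, core-building and branching genes, members with probe sets 1 or more apart (0 found), and up to 4 genes a list with the largest differences. Others were added after their values were seen. The planned O-glycan minus N-glycan difference could not be computed, as 0 N-glycan members are named genes. Counting was tested on simulated data whose noise was smaller than the spread of the real values, so only the counting step was checked. Orientation of the RefSeq windows was checked on 2816 overlapping windows of opposite strand. Python 3.11.15, numpy 2.4.6, pandas 2.3.3 and matplotlib 3.10.9 were used.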

Additional observations from a re-analysis of the deposited data

Results flagged for a closer look

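Among members at least 1.5-fold apart in a pair, 3 had values of the opposite sign in another pair, each from a single array, and the difference between pairs was not tested. GALNT1 was at 0.93 with CTNNB1 siRNA, at -0.18 with MYC siRNA and at -0.40 with MYU siRNA. GALNT3 was at 1.23 with CTNNB1 siRNA, at -0.083 with MYC siRNA and at -0.015 with MYU siRNA. GALNT12 was at 1.28 with CTNNB1 siRNA and at -0.014 with MYU siRNA. Of these opposite values only that of GALNT1 with MYU siRNA lay below the quantile 0.05 of all genes in its pair, which was -0.34.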

How the results depend on the processing

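Counting members at 1.5-fold in place of 2-fold moved the MYC pair from 1 to 2, the CTNNB1 pair from 4 to 5, and left the MYU pair at 0. Centring each pair on its median, protein-coding members only, the O-glycan class of GALNT genes and C1GALT1C1 alone, and taking out a trend on gene length in the MYU pair (a running median over genes) moved no count by over 1.5 times and no median or named gene by more than the median standard deviation between probe sets of a gene (0.10 with CTNNB1, 0.08 with MYC and 0.06 with MYU siRNA). Several of these settings could change little. Centring left the values of the MYC and MYU pairs as they were. No antisense or pseudogene member was past 1.5-fold, and the narrower O-glycan class left out only CHST4. That they moved so little therefore says little about how stable the results are. The lowest, highest or nearest-to-0 probe set moved GALNT2 by more than that standard deviation in the CTNNB1 pair (-0.06 to 0.17) and the MYC pair (0.0036 to 0.68), and no other value. GALNT5, FUT2, GALNT12, GALNT3 and GALNT1, the members past 1.5-fold, have 1 probe set each. The choice of probe set could therefore not change their values. No called value changed sign. Filters on level, other normalizations and other control arrays need levels and were not run, and the planned difference of O-glycan and N-glycan medians had no N-glycan member. No paired analysis was possible because each pair has 1 array on either side.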
